A study of Mus musculus with 6 samples.

Results

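This account covers 39 genes of glycolysis, lactate and pyruvate handling in the juvenile mouse testis, compared between 3 Nxf2 knockout (KO) and 3 wild-type (WT) testis samples. The rule lists the genes by name and uses no measured value, but the list was chosen with earlier results of these data known. Each gene was matched to probe sets that carry its symbol alone in the platform annotation, and was represented by the probe set with the highest mean signal over all 6 arrays. Of the 39 genes, 36 had such a probe set, among 12971 genes with a tested probe set in the whole table. Gapdh was represented by an array control probe set, which stays out of the main test, so 35 genes were tested. Pfkfb1, Eno1 and Gpi1 had no probe set with a single symbol and are not analysed here.

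The samples were testes of juvenile mice on postnatal day 21, when testes of KO and WT mice weighed about the same by the submitters' account. Nxf2 is an X-linked germ cell relative of the mRNA export receptor gene Nxf1. The KO samples carry a knockout of Nxf2 and the WT samples do not, and no treatment is recorded for either. The strain, the form of the deletion and the number of animals per sample are not given in the sources used here. The p-values therefore measure the spread between these samples, which may be partly technical.

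Glycolysis splits glucose into pyruvate. Pyruvate is either reduced to lactate by lactate dehydrogenase or taken into mitochondria, where the pyruvate dehydrogenase complex feeds it to the citric acid cycle. In the testis, Sertoli cells take up glucose and release lactate, which spermatocytes and spermatids burn. Developing germ cells also replace several glycolytic enzymes by isoforms of their own, among them Pgk2, Ldhc and the sperm glyceraldehyde-3-phosphate dehydrogenase Gapdhs, and the sperm tail later depends on glycolysis for movement.

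The KO arrays matched their label, as Nxf2 had signals of 116.0, 106.2 and 130.8 in KO testes, against 374.3, 340.4 and 385.9 in WT testes. The labels do not say which part of Nxf2 was removed, so the position of its probe set relative to that part is unknown here. Spearman correlations between arrays were 0.985 to 0.992 among KO arrays, 0.980 to 0.991 among WT arrays and 0.965 to 0.983 between the genotypes. All 10 listed round spermatid markers fell in KO testes and 5 of 10 pachytene spermatocyte markers fell. The summed signal of the round spermatid markers was 2303 to 2482 on the KO arrays and 3354 to 4044 on the WT arrays. That of the pachytene markers was 6818 to 7777 in KO and 8452 to 8858 in WT. In the other direction, 4 of 9 tested Sertoli markers and 4 of 7 markers of undifferentiated spermatogonia rose. Of all tested probe sets, 5.23% fell and 2.26% rose. Their summed signals were 4406 to 4871 in KO against 3711 to 3938 in WT for Sertoli cells, and 3263 to 3308 in KO against 2705 to 2741 in WT for spermatogonia. Of the Sertoli markers, Amh lay below the dim limit, a mean signal of 20.5 over all 6 arrays under which probe sets were not tested. The round spermatid markers Catsper1, Actl7a and Txndc8 had KO means of 7.71, 12.78 and 15.85, under that limit. They were tested only through their WT signals, so their falls are partly fixed by the filter. In whole testis, fewer cells of a type and less RNA per cell cannot be told apart, and the part of these marker differences in the results that follow was not tested.

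Of the 35 tested genes, 4 fell and 1 rose in KO testes (limma with Benjamini-Hochberg adjustment over the whole table, threshold 0.05). The monocarboxylate transporter gene Slc16a7, the pyruvate dehydrogenase kinase gene Pdk2 and the phosphofructokinase subunit genes Pfkp and Pfkm fell, by 1.22-fold to 1.49-fold, and the hexokinase gene Hk2 rose 1.25-fold. The 5 genes are 14.3% of those tested, against 7.49% of all 27022 tested probe sets. By direction, 11.4% of the genes fell against 5.23% of all probe sets, and 2.86% rose against 2.26%. The 3 KO arrays lay all below the 3 WT arrays for 10 genes and all above them for another 10. Such separation was seen in 57.1% of the 35 genes and in 33.9% of all tested probe sets. Of all tested probe sets, 14.8% had KO below WT and 19.1% had KO above WT, against 28.6% of the 35 genes each way. These shares are not of like sets, because each gene is shown by its brightest probe set and the background holds every tested one. With the dim filter at the 60th percentile, 1944 of 18015 probe sets were called, and 4 of 32 genes fell and 2 rose. The median log2 fold change (KO minus WT) was -0.031 over the 35 genes and 0.037 over all tested probe sets, with 20 genes lower and 15 higher in KO. The differences were small and ran both ways, as the plot of all genes by array shows.

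The counts depend on scaling, on single arrays and on whether same-numbered KO and WT arrays are paired. After centring each array on its median 3 genes fell, namely Slc16a7, Pdk2 and Gapdhs, and none rose, beside 1382 falls and 247 rises over all probe sets in place of 1414 and 610. Leaving out KO replicate 2, KO replicate 3 or WT replicate 3 left 2 genes that fell in each case, and leaving out WT replicate 1 left Slc16a7 as the 1 gene that fell. Of the 6 fits that leave out 1 array, that without WT replicate 1 gave 0 rises and that without WT replicate 2 gave 2, Hk2 and Pdk4. With same-numbered arrays paired by a replicate block, 6 genes fell and 6 rose, beside 4503 probe sets called in place of 2024. The genes called in addition were Hk1, Gapdhs, Pfkl, Pfkfb3, Pkm, Pdk3 and Pdk4.

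**Figure D1:**
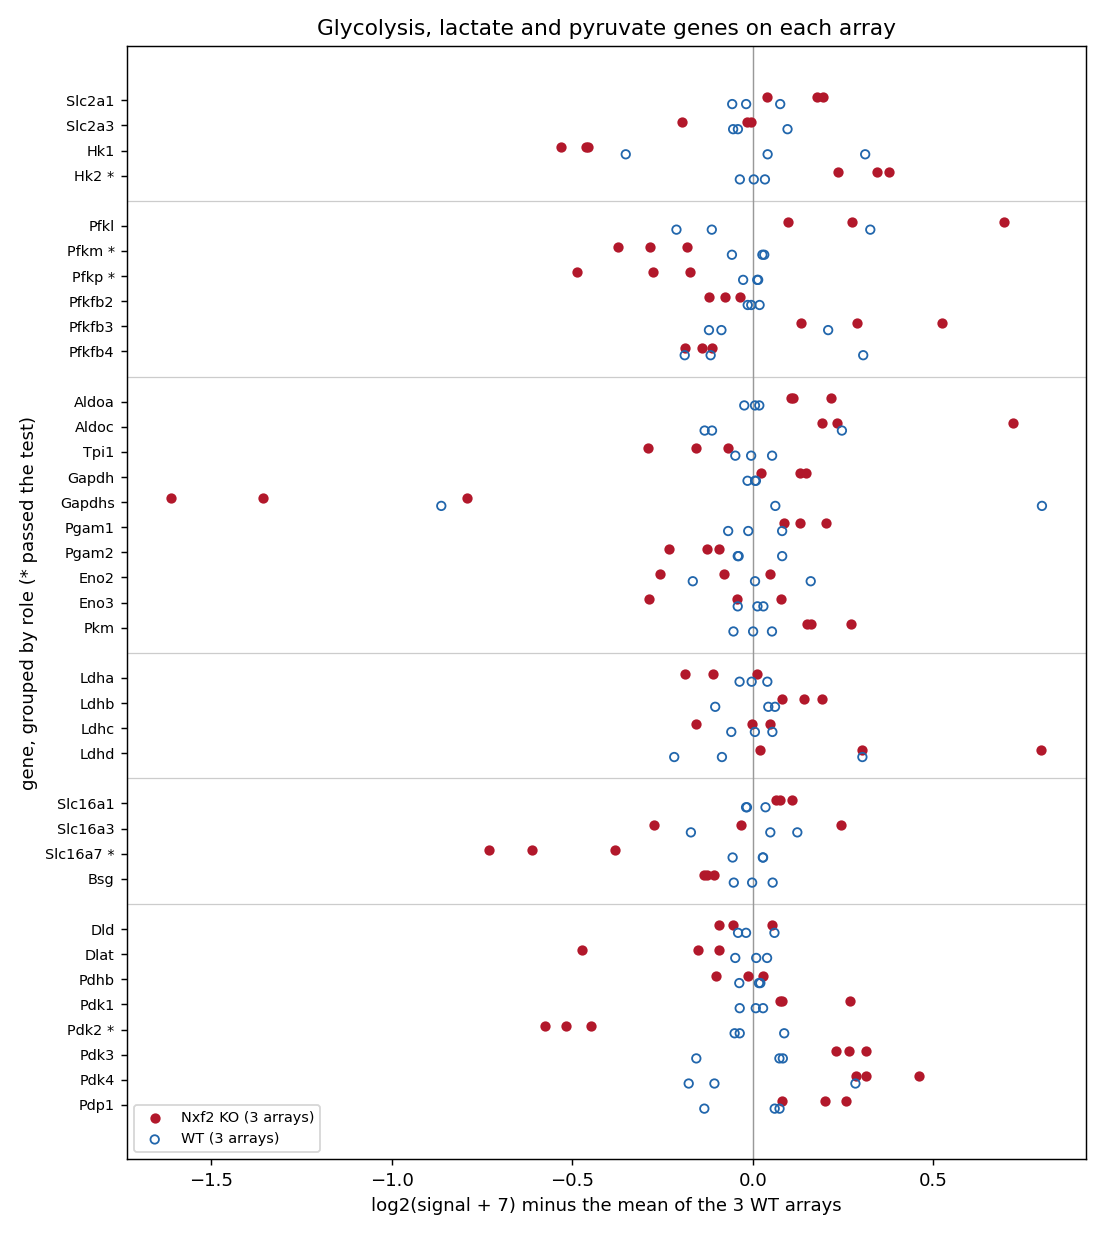
Each row is 1 gene, in groups from hexose uptake at the top to pyruvate dehydrogenase at the bottom, and each point is 1 array (filled, KO; open, WT) on the log2(signal + 7) scale with the gene's average over the 3 WT arrays set to 0. The 4 genes that fell and Hk2, which rose, are starred. Most genes lie close to 0, while Gapdhs spans the widest range and its KO and WT points overlap.

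Entry of glucose was followed through 2 transporters and 2 hexokinases. Hk2 encodes a hexokinase that traps glucose in the cell and is induced in growing tissue. Its signal was 880.4, 798.0 and 860.4 in KO testes, against 677.7, 659.6 and 692.5 in WT testes. All KO arrays lay above all WT arrays. The log2 fold change was 0.32 ± 0.055 (SE, n = 3 per group, limma, adjusted p = 0.0115). The adjusted p was 0.0612 after median centring, 0.0649 without the intensity trend and 0.0694 without WT replicate 1.

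Hk1, the widely expressed hexokinase gene, also makes transcripts particular to mouse spermatogenic cells, and whether its probe set tells them apart was not examined. Its signal was 190.0, 199.8 and 200.5 in KO testes and 286.1, 216.2 and 346.5 in WT testes. The KO values were tightly grouped and below every WT value, whereas the WT arrays spread widely, with replicate 2 nearest to KO. The log2 fold change of -0.48 ± 0.14 (SE) did not pass (limma, adjusted p = 0.0677), and without WT replicate 2 it was -0.66 (limma, adjusted p = 0.00831). It did not pass under 14 of 17 alternatives.

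The glucose transporter genes did not pass. Slc2a1, the basal glucose transporter, had a log2 fold change of 0.14 (limma, adjusted p = 0.201). Slc2a3, a high-affinity transporter found in germ cells and neurons, had one of -0.073 (limma, adjusted p = 0.451). In both genes KO and WT arrays overlapped.

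Phosphofructokinase, the main control step of glycolysis, is built from liver, muscle and platelet type subunits. The muscle and platelet type genes fell and the liver type gene did not pass. Pfkp, the platelet type, had signals of 548.1, 510.6 and 440.2 in KO testes, against 608.2, 625.1 and 626.2 in WT testes. The WT arrays were close together and KO replicate 3 was the lowest. The log2 fold change was -0.31 ± 0.079 (SE, limma, adjusted p = 0.0413). Pfkm, the muscle type, had signals of 379.4, 331.8 and 353.1 in KO testes, against 440.0, 414.6 and 441.6 in WT testes. These values did not overlap, and the log2 fold change was -0.28 ± 0.073 (SE, limma, adjusted p = 0.0456).

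Both calls sat near the threshold, and after median centring neither held (limma, adjusted p = 0.0607 for Pfkp and 0.0587 for Pfkm). The adjusted p of Pfkp was 0.0718 without KO replicate 2, 0.0716 without KO replicate 3, and 0.132, 0.0952 and 0.0853 without WT replicates 1, 2 and 3. That of Pfkm was 0.112 without KO replicate 2, 0.0875 without KO replicate 3, and 0.169, 0.0713 and 0.0963 without WT replicates 1, 2 and 3. The other 2 probe sets of Pfkp had lower means in KO too, with log2 fold changes of -0.56 and -0.15, and neither passed (limma, adjusted p = 0.0634 and 0.547).

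Pfkl, the liver type, had signals of 135.9, 154.5 and 209.2 in KO testes and 116.4, 108.3 and 160.3 in WT testes. Replicate 3 was the highest in both genotypes and the groups overlapped, and the log2 fold change of 0.36 did not pass (limma, adjusted p = 0.214). With the replicate block, which pairs same-numbered arrays, Pfkl passed (limma with the block, adjusted p = 0.0338). The Pfkfb genes encode enzymes that make and break down the fructose bisphosphate that activates phosphofructokinase, and none of the 3 measured ones passed. Pfkfb3 had a log2 fold change of 0.31 (limma, adjusted p = 0.134), Pfkfb4, whose product occurs in testis, one of -0.15 (limma, adjusted p = 0.51) and Pfkfb2 one of -0.079 (limma, adjusted p = 0.443).

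From aldolase to pyruvate kinase none of the 9 tested genes passed with limma, while 7 had an unadjusted p under 0.05, 3 of them lower and 4 higher in KO. Of all tested probe sets, 28.5% had an unadjusted p under 0.05, with 13.0% lower and 15.5% higher in KO. The gene nearest to the threshold was Pkm, whose product makes pyruvate. Its signal was 1012, 1004 and 1093 in KO testes, against 870.8, 904.6 and 938.2 in WT testes. Every KO array was higher than every WT array, with a log2 fold change of 0.19 ± 0.052 (SE, limma, adjusted p = 0.0514). Under 5 of 17 alternatives Pkm passed, quantile normalization among them (limma, adjusted p = 0.0414).

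Aldoa, the main aldolase gene, had a log2 fold change of 0.14 (limma, adjusted p = 0.0699) with KO above WT on every array. Its other probe sets gave 0.020 to 0.45 and none passed, and the one at 0.020 had overlapping arrays (limma, adjusted p = 0.777). Aldoa did not pass under 15 of 17 alternatives. After quantile normalization it passed (limma, adjusted p = 0.0347) and after median centring it did not (limma, adjusted p = 0.422). The probe set used for Aldoa ends in x_at, the array maker's mark for probes that can bind other transcripts, so its signal may include near-identical copies. Aldoc, the brain type aldolase, had a log2 fold change of 0.38 (limma, adjusted p = 0.162). Tpi1, triosephosphate isomerase, was measured by 3 probe sets that had lower values on every KO array than on any WT array. Their log2 fold changes were -0.17, -0.20 and -0.17, and none passed (limma, adjusted p = 0.145, 0.0634 and 0.121).

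Gapdhs, the sperm form of glyceraldehyde-3-phosphate dehydrogenase, had the lowest fold change of the 35 genes but did not pass. Its signal was 13.4, 17.4 and 29.1 in KO testes, against 58.3, 27.4 and 101.9 in WT testes. WT replicate 2 lay below KO replicate 3, so the groups overlapped. The KO mean of 19.98 was below the dim limit of 20.5, so Gapdhs was tested only through its WT signals. The log2 fold change was -1.25 ± 0.36 (SE, limma, adjusted p = 0.0633). It ranged from -1.69 to -0.73 over 16 alternatives and depends on the pseudocount. Gapdhs passed under 4 of them, which include median centring (limma, adjusted p = 0.0455) and the fit without WT replicate 2 (log2 fold change -1.69, adjusted p = 0.00828).

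Gapdh, the form found in all cells, was measured by 3 control probe sets that lie towards the 3′ end, the middle and the 5′ end of its mRNA. The 3′ probe set had signals of 1441, 1320 and 1423 in KO testes, against 1287, 1308 and 1306 in WT testes. In a fit with these control probe sets added to the table, the log2 fold change was 0.10 ± 0.044 (SE, limma, adjusted p = 0.171). The middle probe set gave 0.17 and passed (limma, adjusted p = 0.0439), and the 5′ one gave 0.17 and did not (limma, adjusted p = 0.11). All 3 were higher on every KO array than on any WT array. The 3′ signal divided by the 5′ signal, a measure of RNA quality that goes up with degradation, was 1.43 ± 0.0237 in KO testes and 1.5 ± 0.105 in WT testes (SD, n = 3 each).

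Phosphoglycerate mutase is encoded by Pgam1, found in most tissues, and Pgam2, the muscle form that is also made in testis. Pgam2 had signals of 1153, 1126 and 1047 in KO testes, against 1195, 1302 and 1197 in WT testes. The KO arrays were all lower, with a log2 fold change of -0.15 ± 0.053 (SE, limma, adjusted p = 0.104). Pgam1 had signals of 1022, 1055 and 1110 in KO testes, against 954.4, 1019 and 918.0 in WT testes. The KO arrays were all higher, with a log2 fold change of 0.14 ± 0.054 (SE, limma, adjusted p = 0.129). Enolase showed less: Eno3, the muscle form, had a log2 fold change of -0.084 (limma, adjusted p = 0.547) and Eno2, the neuronal form, one of -0.096 (limma, adjusted p = 0.702). Of the 8 skeletal muscle markers 5 lay below the dim limit, namely Myh4, Ckm, Acta1, Tnnt3 and Pvalb. The 3 tested ones, Actn3, Myh1 and Mylpf, had log2 fold changes of 0.73, 0.49 and -0.11. None of them passed (limma, adjusted p = 0.11, 0.201 and 0.613). The 8 summed to 241.6 to 351.6 on the KO arrays and 182.2 to 284.2 on the WT arrays. Their part in the values of Pgam2 and Eno3 was not tested.

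None of the 4 lactate dehydrogenase genes passed with limma, and 1 of them, Ldhb, had an unadjusted p under 0.05. Ldhc is switched on in spermatocytes and is needed for sperm movement in mice. Its signal was 2224, 2148 and 1927 in KO testes and 2063, 2233 and 2159 in WT testes. KO replicate 3 was the lowest of the 6 arrays and the other KO values lay within the WT range, with a log2 fold change of -0.037 ± 0.053 (SE, limma, adjusted p = 0.677), and the second Ldhc probe set gave -0.012 (limma, adjusted p = 0.883).

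Ldha, which favours lactate formation, had signals of 1447, 1329 and 1259 in KO testes and 1399, 1476 and 1432 in WT testes. KO replicate 1 lay among the WT values, and the log2 fold change was -0.096 ± 0.053 (SE, limma, adjusted p = 0.26). Ldhb, which favours lactate use, had signals of 1444, 1337 and 1397 in KO testes, against 1176, 1320 and 1303 in WT testes. All KO arrays were higher by this probe set, with a log2 fold change of 0.14 ± 0.053 (SE, limma, adjusted p = 0.13). The other Ldhb probe sets gave 0.082 to 0.13, all with overlapping arrays, and none passed (limma, adjusted p 0.179 to 0.329). Ldhd, which oxidises D-lactate, had a log2 fold change of 0.37 (limma, adjusted p = 0.272), with overlapping arrays.

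The germ cell isoforms were then set against their somatic counterparts within each array, by taking the log2 value of the germ cell isoform minus that of the somatic one and comparing this difference between KO and WT. The test was an exact two-sided permutation test over the 6 arrays, whose smallest possible p is 0.1, so that no pair can pass 0.05. Full separation of KO from WT values gives that p. It was seen in 33.9% of single tested probe sets and was not counted over other gene pairs. For Gapdhs minus Gapdh the KO minus WT difference was -1.35, with SDs of 0.42 among KO arrays and 0.84 among WT arrays (exact permutation p = 0.1). For Pgam2 minus Pgam1 it was -0.29, with SDs of 0.13 in KO and 0.029 in WT (exact permutation p = 0.1). In both pairs the 3 KO differences lay below the 3 WT differences, although for Gapdhs the margin between KO replicate 3 at -0.92 and WT replicate 2 at -0.87, each relative to the WT mean, was narrow.

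Ldhc differed by pair. Ldhc minus Ldhb was -0.17 and Ldhc minus Ldha 0.059, and in each case the KO and WT values did not overlap (exact permutation p = 0.1 for both). These pairs use the probe set that represents each gene, and the other Ldhb probe sets had overlapping arrays. Without KO replicate 3, Ldhc minus Ldhb was -0.11. Ldhc minus Ldha was 0.034 without KO replicate 2 and 0.018 after quantile normalization. By themselves, the log2 fold changes were -0.037 for Ldhc, -0.096 for Ldha and 0.14 for Ldhb.

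Phosphoglycerate kinase and the alpha subunit of pyruvate dehydrogenase, which are not among the 39 genes, add pairs of another kind. In both, the somatic gene (Pgk1, Pdha1) is X-linked and the germ cell gene (Pgk2, Pdha2) is an autosomal retrogene that is active when the X chromosome is silenced in spermatocytes. Pgk2, which is also in the pachytene marker list, fell by 0.56 on the log2 scale (limma, adjusted p = 0.0033) and Pgk1 rose by 0.28 (limma, adjusted p = 0.0376). The rise of Pgk1 did not pass under 9 of 17 alternatives, among them median centring (limma, adjusted p = 0.117) and each fit without 1 array except that without KO replicate 2 (limma, adjusted p 0.0511 to 0.151). Pgk2 minus Pgk1 was -0.84, with SDs of 0.11 in KO and 0.051 in WT (exact permutation p = 0.1). Neither Pdha2, with a log2 fold change of -0.13 (limma, adjusted p = 0.189), nor Pdha1, with 0.29 (limma, adjusted p = 0.157), passed, and Pdha2 minus Pdha1 was -0.42 with overlapping arrays (exact permutation p = 0.2), or -0.27 without KO replicate 3 and -0.26 without WT replicate 2. Adjusted over the 6 pairs compared, the p-values were 0.12 for 5 pairs and 0.2 for Pdha2.

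**Figure D2:**
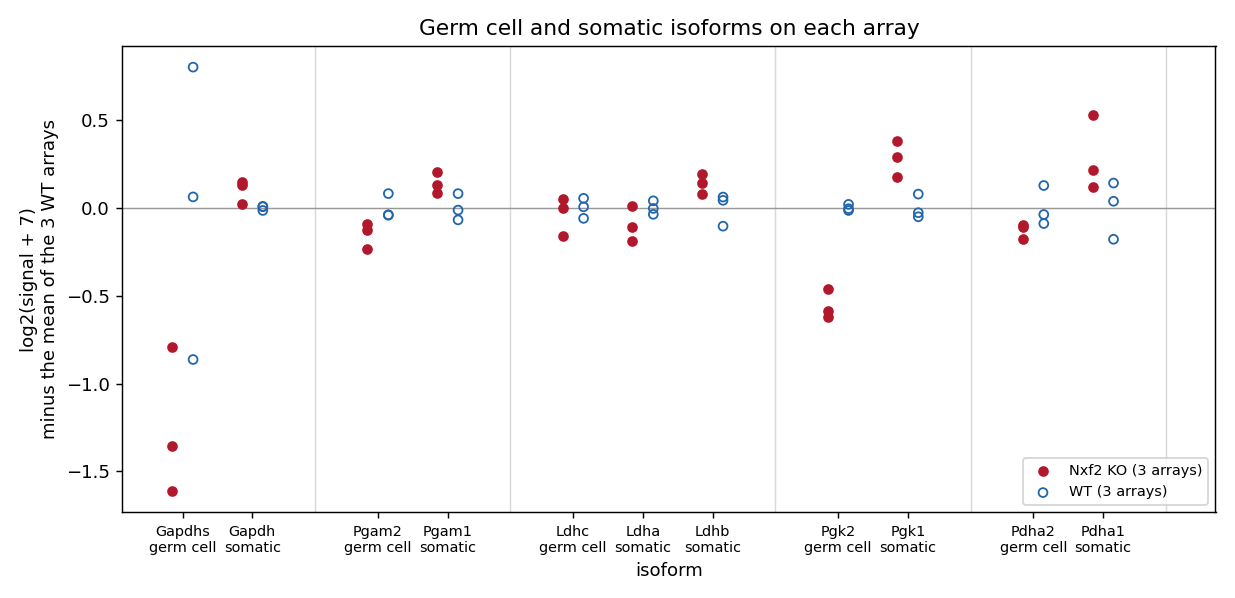
Germ cell isoforms and their somatic counterparts on each array (filled, KO; open, WT), on the log2(signal + 7) scale with each gene's average over the 3 WT arrays set to 0. Pgk2 lies 0.46 to 0.62 below the WT mean in KO testes while Pgk1 lies above it, Gapdhs is low and scattered, and Ldhc is spread around 0 in both genotypes.

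The upstream sequences of Gapdhs and Ldhc are shown because these germ cell isoforms had the lowest fold change and one of the fold changes nearest to 0. Both are the 250 bases before the most upstream start in RefSeq's annotation of GRCm38.p6, and 35 of the 39 genes have an entry in that table. Capitals mark TGACG, the half-site of the cAMP response element through which CREM acts in spermatids, and ACGTG, the core of the hypoxia-inducible factor site, on either strand. The motifs can share bases, as in TGACGTG. The Gapdhs window lies at chr7:30743682-30743931 on the minus strand and the Ldhc window at chr7:46861013-46861262 on the plus strand.
Gapdhs: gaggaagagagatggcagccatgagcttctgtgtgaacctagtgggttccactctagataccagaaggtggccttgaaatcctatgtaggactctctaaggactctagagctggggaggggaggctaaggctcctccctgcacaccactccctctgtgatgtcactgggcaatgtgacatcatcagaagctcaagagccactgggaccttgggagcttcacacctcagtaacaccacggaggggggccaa
Ldhc: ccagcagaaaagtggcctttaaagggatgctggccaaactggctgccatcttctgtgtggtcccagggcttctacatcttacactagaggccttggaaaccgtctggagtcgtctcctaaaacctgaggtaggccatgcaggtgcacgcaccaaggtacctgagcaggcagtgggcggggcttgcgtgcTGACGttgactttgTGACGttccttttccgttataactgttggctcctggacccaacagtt
The Ldhc window holds TGACG at 2 positions, which begin 61 and 47 bases before the start, and the Gapdhs window holds neither motif. TGACG occurs in 17.8% of all 32851 windows of this length and in 8 of the 35 windows of these genes (22.9%). ACGTG occurs in 16.6% of all windows and in 12 of the 35 (34.3%). The 32851 windows can hold several starts of a gene and the 35 hold only the most upstream, so these sets are unlike. These matches describe letters in the windows only.

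Lactate and pyruvate cross membranes through monocarboxylate transporters, and the deepest fall that passed among the 35 genes was in this group. Slc16a7 encodes MCT2, a transporter with high affinity for pyruvate that is present on germ cells and the sperm tail. Its signal was 443.9, 522.0 and 408.4 in KO testes, against 655.6, 695.2 and 695.5 in WT testes. The lowest WT array was well above the highest KO array. The log2 fold change was -0.57 ± 0.085 (SE, limma, adjusted p = 0.00685), which is 1.49-fold lower. Slc16a7 passed under all 17 alternatives (limma, adjusted p 0.000526 to 0.0458). Among these, averaging probe sets and adding the Gapdh control probe sets could not change its log2 fold change.

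The other transporter genes and Bsg did not pass. Slc16a1, which encodes the widespread transporter MCT1, had a log2 fold change of 0.083 (limma, adjusted p = 0.254). Slc16a3, which encodes the lactate exporter MCT4, had one of -0.022 (limma, adjusted p = 0.939). Bsg encodes basigin, the membrane partner of MCT1 and MCT4, without which male mice are sterile. Its signal was 968.0, 975.1 and 988.4 in KO testes, against 1063, 1106 and 1026 in WT testes. Every KO value was lower and the KO arrays were close together, but the log2 fold change of -0.12 ± 0.046 (SE) did not pass (limma, adjusted p = 0.118).

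At the entry to mitochondria, the kinases that switch off pyruvate dehydrogenase differed among themselves. Pdk2 had signals of 270.0, 257.0 and 246.9 in KO testes, against 358.3, 361.9 and 394.8 in WT testes. The groups were well apart. The log2 fold change was -0.51 ± 0.076 (SE, limma, adjusted p = 0.00685), which is 1.43-fold lower, and it was -0.54 without WT replicate 1 (limma, adjusted p = 0.0505), the one of 17 alternatives under which Pdk2 did not pass.

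By the probe set that represents each, the other 3 kinase genes had higher signals on every KO array than on any WT array, and none passed. Pdk3, which is X-linked, had signals of 374.9, 365.9 and 387.9 in KO testes, against 329.4, 277.9 and 327.2 in WT testes (log2 fold change 0.27, limma, adjusted p = 0.0737). Pdk4, the kinase induced by fasting, had signals of 354.9, 401.9 and 362.4 in KO testes, against 255.6, 354.7 and 268.9 in WT testes (log2 fold change 0.35, limma, adjusted p = 0.0895). WT replicate 2 nearly reached the KO values of Pdk4, and without it the log2 fold change was 0.50 (limma, adjusted p = 0.0149), while 14 of 17 alternatives did not call it. Pdk4 is also expressed in fat, whose 4 measured markers summed to 610.7 to 864.8 on the KO arrays and 278.6 to 460.1 on the WT arrays. Of the 3 tested fat markers 2 rose, Lep lay below the dim limit, and their part in the Pdk4 values was not tested. Pdk1 had a log2 fold change of 0.14 (limma, adjusted p = 0.187). Its other probe sets gave 0.091 to 0.26 and none passed, and the one at 0.091 had overlapping arrays (limma, adjusted p = 0.61).

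The subunits of the complex did not pass. Dlat, the acetyl transferase core, was lower on every KO array by all 3 of its probe sets, with log2 fold changes of -0.24, -0.25 and -0.25 (limma, adjusted p = 0.131, 0.11 and 0.0933). Pdhb, the beta subunit of the first enzyme, had a log2 fold change of -0.030 (limma, adjusted p = 0.71). Its other, dimmer probe set gave -0.25 with every KO array lower (limma, adjusted p = 0.153). Dld, the shared dehydrogenase subunit, had a log2 fold change of -0.031 (limma, adjusted p = 0.795). Pdp1, a phosphatase that switches the complex back on, had one of 0.18 (limma, adjusted p = 0.199). Over all 35 genes, 27 further probe sets of 14 genes were tested, and each had the sign of the probe set that represents its gene. None passed by limma, and 11 (40.7%) had an unadjusted p under 0.05, against 28.5% of all tested probe sets. Slc16a7, Pdk2, Pfkm and Hk2 have 1 probe set each, so among the genes that passed this covers Pfkp alone.

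**Figure D3:**
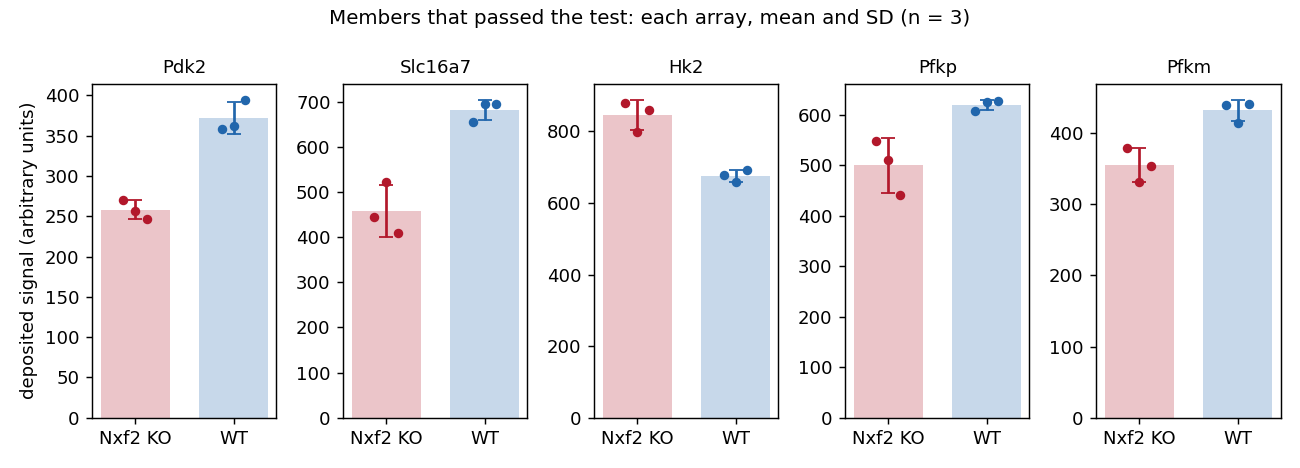
Deposited signal of the 5 genes that passed, in order of p. Bars are means, error bars SD (n = 3) and points single arrays, with KO left of WT. In every panel the KO points lie clear of the WT points, below them for Pdk2, Slc16a7, Pfkp and Pfkm and above them for Hk2.

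Among the genes that passed, Hk2 and Pdk2 are shown with their upstream windows, in the same form and with the same capitals. Slc16a7 has no entry in the promoter table. The Hk2 window lies at chr6:82774455-82774704 and the Pdk2 window at chr11:95041372-95041621, both on the minus strand.
Hk2: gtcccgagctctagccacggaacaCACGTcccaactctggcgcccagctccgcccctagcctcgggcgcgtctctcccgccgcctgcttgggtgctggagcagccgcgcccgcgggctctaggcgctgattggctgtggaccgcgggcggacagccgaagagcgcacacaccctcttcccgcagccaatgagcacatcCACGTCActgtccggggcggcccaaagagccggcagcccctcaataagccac
Pdk2: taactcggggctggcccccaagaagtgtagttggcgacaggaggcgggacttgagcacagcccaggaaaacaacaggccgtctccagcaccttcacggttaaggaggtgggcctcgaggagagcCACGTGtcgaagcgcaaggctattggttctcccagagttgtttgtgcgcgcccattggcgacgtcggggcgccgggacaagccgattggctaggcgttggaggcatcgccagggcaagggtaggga
The Hk2 window holds ACGTG at 2 positions, and at the one nearer to the start it shares bases with TGACG. The Pdk2 window holds CACGTG, which reads as ACGTG on both strands.

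The other genes of these pathways were counted from lists of named genes. In the list of other glycolytic enzymes 4 of 12 tested genes fell and 1, Pgk1, rose, with a median log2 fold change of -0.19. Aldoart1 and Aldoart2, aldolase retrogenes of the male germ line, were far lower in KO. Aldoart1 had signals of 4.35, 5.54 and 12.2 in KO testes, against 56.2, 28.0 and 70.3 in WT testes (log2 fold change -1.99 ± 0.29 SE, limma, adjusted p = 0.00685). Aldoart2 had signals of 10.1, 9.48 and 19.1 in KO testes, against 86.1, 34.9 and 86.4 in WT testes (log2 fold change -1.88 ± 0.30 SE, limma, adjusted p = 0.00936). KO means of both, 7.36 and 12.87, were below the dim limit, so both genes were tested only through their WT signals. Their lower KO means are therefore partly fixed by the filter, and both are among the 4 genes counted as fallen. The folds also depend on the pseudocount. Without WT replicate 1 neither gene passed (limma, adjusted p = 0.0513 for Aldoart1 and 0.0577 for Aldoart2). WT replicate 2 was the lowest WT array for both, as it was for Gapdhs and for the summed round spermatid markers, at 3354 against 3819 and 4044.

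Pgk2 had signals of 620.1, 555.0 and 568.3 in KO testes, against 847.7, 853.6 and 868.5 in WT testes. Unlike for the aldolase retrogenes, the WT arrays hardly differed. Eno4, an enolase gene needed for the sperm tail in mice and named here after its values were seen, fell by 0.36 on the log2 scale (limma, adjusted p = 0.0386). Its call was lost under 8 of 17 alternatives, among them leaving out KO replicate 1 or 3, with adjusted p of 0.0858 and 0.0997, or WT replicate 1, 2 or 3, with adjusted p of 0.0927, 0.107 and 0.0794.

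**Figure D4:**
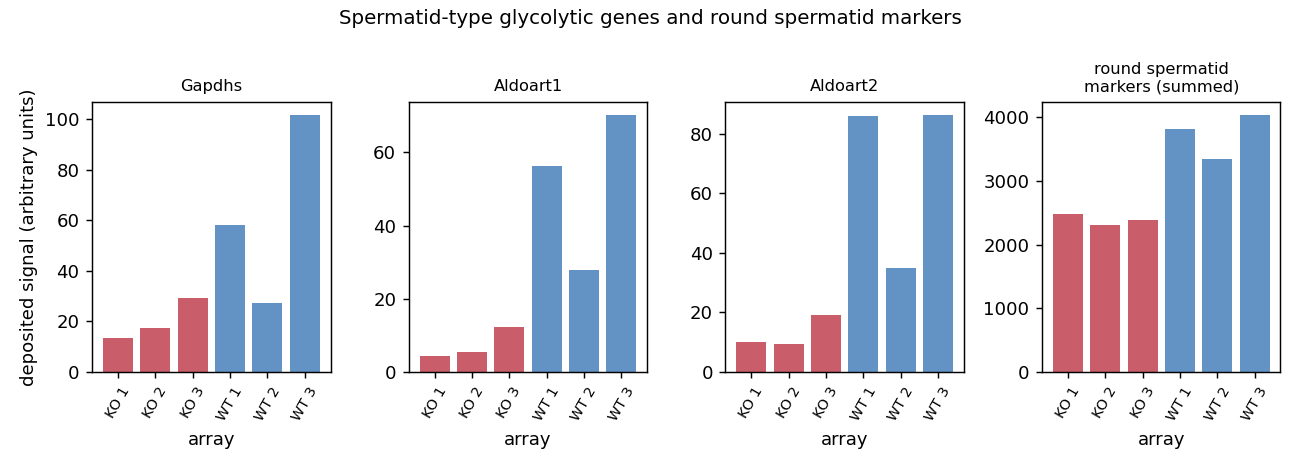
Deposited signal on each array for Gapdhs, Aldoart1 and Aldoart2, and the summed signal of 10 round spermatid markers (red, KO; blue, WT). In all 4 panels WT replicate 2 is the lowest WT array, and for Gapdhs it lies below KO replicate 3.

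Downstream of pyruvate little passed. None of 17 tested genes of the citric acid cycle passed, with a median log2 fold change of 0.023, and none of 10 further genes of pyruvate dehydrogenase and the pyruvate carrier did, with a median of 0.066. At an unadjusted limma p under 0.05 there were 6 genes of the citric acid cycle (35.3%), 1 lower and 5 higher in KO, and 3 of the second list (30.0%), 1 lower and 2 higher, near the 28.5% of all tested probe sets. Of 6 pentose phosphate genes, Taldo1, encoding transaldolase, rose by 0.31 on the log2 scale (limma, adjusted p = 0.0238), and it lost this call under 6 of 17 alternatives. Among these were median centring (limma, adjusted p = 0.079) and leaving out KO replicate 1 or 3, with adjusted p of 0.057 and 0.053, or WT replicate 1 or 2, with adjusted p of 0.112 and 0.0676. In the glycogen list 12 of 13 tested genes had higher means in KO, with a median of 0.22, but none of these 12 passed. The share of all tested probe sets with higher means was not counted, and their median log2 fold change was 0.037. At an unadjusted limma p under 0.05 there were 3 of the 13 (23.1%), 1 lower and 2 higher in KO. Of all tested probe sets, 28.5% met that threshold.

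The gene of the glycogen list that passed ran the other way: Phkg2, the testis and liver form of the phosphorylase kinase catalytic subunit, fell by 0.21 on the log2 scale (limma, adjusted p = 0.0463, lost under 8 of 17 alternatives, with adjusted p up to 0.161). Of these 8, 5 left out 1 array, namely KO replicate 2 or 3 or any WT replicate, with adjusted p of 0.0661 to 0.134. Gk2, a glycerol kinase retrogene of the germ line, was the only gene of the 9 in the shuttle list to pass. It had signals of 1147, 1112 and 1011 in KO testes, against 1306, 1447 and 1288 in WT testes (log2 fold change -0.30, limma, adjusted p = 0.0199), and it did not pass under 3 of 17 alternatives, without WT replicate 1 (limma, adjusted p = 0.0751), without the dim filter (adjusted p = 0.054) and without the intensity trend (adjusted p = 0.0958). Slc2a5, the fructose transporter gene, had signals of 695.2, 680.8 and 632.2 in KO testes, against 973.6, 988.2 and 923.5 in WT testes. It fell by 0.52 on the log2 scale (limma, adjusted p = 0.00334), passed under all 17 alternatives and was the only one of 5 tested genes of gluconeogenesis, fructose and sorbitol to pass.

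Of 10 other hexose and monocarboxylate transporter genes, Slc16a13 rose by 0.55 on the log2 scale (limma, adjusted p = 0.0399). Its call was lost without any 1 of the 6 arrays (limma, adjusted p 0.0697 to 0.123). In this list 9 of the 10 had higher means in KO, a share not counted over all probe sets. At an unadjusted limma p under 0.05 there were 3 (30.0%), 1 lower and 2 higher, against 28.5% of all tested probe sets. In the hypoxia-inducible factor list, Egln2, a prolyl hydroxylase, fell by 0.20 on the log2 scale (limma, adjusted p = 0.0396). That call too was lost without any 1 of the 6 arrays (limma, adjusted p 0.0551 to 0.172). The other 8 genes of that list did not pass.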

How the data were processed

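Total RNA of 6 mouse testis samples was labelled and hybridised to 1-colour Affymetrix arrays, 1 per sample. The authors deposited linear signal intensities, 1 value for each probe set and array. The submitters' processing notes name MAS5, with no version. Every array of the deposited intensity table has the same 2% trimmed mean, 150.0. The number of arrays limits the precision.

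Of 45101 probe sets, 64 controls were left out, except that Gapdh's were added for its own test. Symbols were updated through RefSeq (GRCm38.p6). Signals were transformed to log2(signal + 7), 7 being the 25th percentile of all values, so folds of dim probe sets are understated. Probe sets with a mean of at least 20.5 (40th percentile) were tested with limma 3.58.1 in R 4.3.3 (intensity trend, two-sided, no covariate). The fit was also run on simulated data with independent noise on each array, which cannot test it against deviations that arrays share. Log2 fold changes are KO minus WT. SE is limma's moderated standard error. All genes of the list were accounted for, and from each other list at most the 4 genes of lowest p that passed were named, besides the isoform pairs and Eno4, which falls outside this rule. The genes, lists and tests were chosen with earlier results of these data known.

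Alternatives were 2 other scalings, pseudocounts of 1 and 39, no dim filter and one at the 60th percentile, no trend, array weights, the replicate block, averaging a gene's probe sets, and leaving out each array. The added Gapdh control probe sets were chosen after seeing the data. The fit with them is counted among the 17 alternatives given for single genes, though it hardly changes other genes. Averaging probe sets leaves the log2 fold change of a gene with 1 tested probe set unchanged. Such alternatives say little about how well a call holds.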

Additional observations from a re-analysis of the deposited data

How the results depend on the processing

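Over all probe sets the number called was 1005 without the dim filter, 743 without the trend, 7217 with array weights and 159 to 1534 when each array was left out, against 2024 as reported. Falls numbered 817, 569, 3446 and 143 to 1146 in the same order, and rises 188, 174, 3771 and 16 to 388, with 247 rises after median centring. Of the 35 glycolysis, lactate and pyruvate genes, 2 fell without the dim filter, 2 without the trend and 8 with array weights, and 1 to 4 when each array was left out. The number that rose was 3 after quantile normalization, 0 after median centring, 2 with the 60th percentile filter, 0 without the trend, 9 with array weights, 2 with the mean of all probe sets and 0 to 2 when each array was left out. No call of these genes changed sign under any of these alternatives. The difference of Ldhc minus Ldha was 0.018 after quantile normalization, and the cause of these shifts was not tested.

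The deviations of same-numbered KO and WT arrays correlated at 0.079, 0.457 and 0.266 for numbers 1, 2 and 3. WT replicate 1 correlated more with KO replicate 3 (0.112), and the other differently numbered arrays correlated at -0.334 to -0.021. Deviations cancel out over the 3 arrays of a genotype, so these correlations are not independent and the negative ones are partly forced. The submitters describe the testes as 3 pairs, but the labels do not say that a number marks a pair. Number 1 lies at or below the 0.1 asked of every pair, so the fit without the block was kept. Whether the numbers mark pairs is not settled by this. With the replicate block, 4503 probe sets were called (2330 fell and 2173 rose), and 6 of the 35 genes fell and 6 rose. The 5 reported calls were among these, and Hk1 and Gapdhs fell and Pfkl, Pfkfb3, Pkm, Pdk3 and Pdk4 rose in addition (limma with the block, adjusted p 0.00536 to 0.0338). The isoform differences are unchanged by the block, as paired and unpaired means are equal by construction.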

Other observations

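Markers of other cell types of the testis gave mixed results. The summed signal of 6 Leydig markers was 2685 to 3942 on the KO arrays and 2224 to 2563 on the WT arrays, and 2 of the 6 rose. For 8 macrophage markers it was 2081 to 3142 in KO and 1404 to 1948 in WT, with none passing by limma and 5 at an unadjusted p under 0.05, all higher in KO, where 28.5% of all tested probe sets met that threshold. For 6 endothelial markers it was 221.3 to 288.5 in KO and 184.2 to 193.8 in WT, and 2 of the 5 tested ones rose. The 5 peritubular myoid markers summed to 1961 to 2266 in KO and 1918 to 2038 in WT, with none passing by limma and 0 at an unadjusted p under 0.05. The part of these markers in the values of the glycolysis, lactate and pyruvate genes was not tested.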
